A study of Mus musculus with 8 samples.

Results

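The genes described here are the keratins that build the intermediate filaments of single-layered epithelium, Krt7, Krt8, Krt18, Krt19, Krt20 and Krt23, together with Sprr1a, a small proline-rich protein. They were chosen by name, and a probe set counted as theirs where its RefSeq accession maps to the gene. Of the 7 genes 6 were measured, each by 1 probe set, out of 14351 genes in all. Krt8 matched no probe set and was not analysed here. The study measured RNA from the colon of adult mice on expression arrays. It holds 3 arrays labelled STAT5b-/-, whose mice lack the transcription factor STAT5b by genotype, 3 arrays labelled WT, from wild type mice, and REF, also wild type by its labels. What REF stands for is not stated; its 2 columns hold the same values to less than sampling noise and count as 1 sample. STAT5b-/- replicate 1 is male and the other samples are female; the labels give neither strain, nor age beyond adult, nor which part of the gene is deleted. Apart from this difference in sex, they do not say that replicates come from different animals. The spread behind each p-value may therefore be technical in part, and in the WT arrays wholly so. Values are linear ratios scaled so that the 3 WT arrays average 1 in each probe set, so levels cannot be compared between genes.

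Keratins are the cytoplasmic intermediate filament proteins of epithelial cells. A type I keratin pairs with a type II keratin, and the paired chains assemble into filaments that run between desmosomes and give the cell mechanical strength. In intestinal epithelium Krt8 is the main type II chain, Krt18 and Krt19 are its general type I partners, and Krt20 is the type I keratin of differentiated cells near the luminal surface. Krt7 is a type II keratin better known from ducts and glands. Krt23 is a type I keratin known in mouse liver to be induced by injury. Sprr1a is known as a precursor of the cornified envelope, the cross-linked protein shell of squamous cells, and is also made by intestinal epithelium.

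In the arrays labelled STAT5b-/-, Sprr1a rose 6.82-fold and Krt20 rose 1.63-fold relative to WT, while Krt23 and Krt18 fell, by 1.02 and 0.51 on the log2 scale. Krt19 and Krt7 had log2 fold changes of 0.36 and 0.19 that did not pass the test. Thus 2 of the 6 measured genes were called higher and 2 lower by limma with Benjamini-Hochberg adjustment over all genes at an adjusted p under 0.05. Over all genes tested 13.3% were called higher and 8.42% lower, 21.7% in either direction.

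Stat5b itself had ratios of 1.16, 1.17 and 1.26 in the arrays labelled STAT5b-/-, against 1.08, 0.930 and 0.993 in WT arrays and 1.18 in REF, so the labels could not be checked with it. Its log2 fold change of 0.26 ± 0.12 did not pass (limma adjusted p = 0.175), and where its probes lie relative to the deletion is not known here. Log2 ratios had an SD over probe sets of 0.646 to 0.737 in arrays labelled STAT5b-/-, of 0.289 to 0.363 in WT arrays, whose own mean is the divisor, and of 0.402 in REF.

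**Figure D1:**
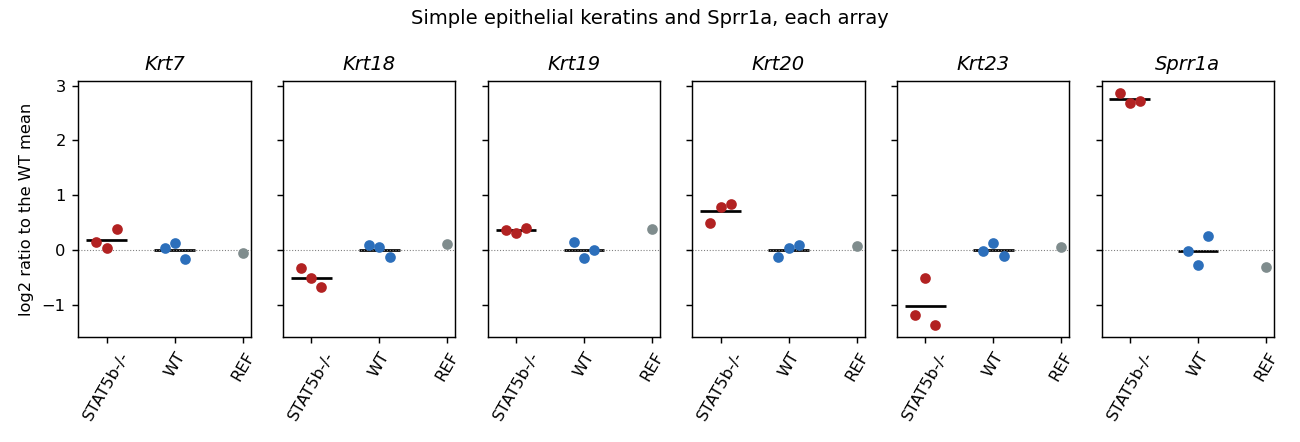
Log2 ratio to the WT mean (vertical axis) of the 6 measured genes in each array, with arrays labelled STAT5b-/- in red, WT in blue and REF in grey; black lines are group means over 3 arrays. Sprr1a and Krt20 sit above both wild type groups and Krt18 and Krt23 below them, while Krt19 in REF is as high as in the arrays labelled STAT5b-/-.

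Promoter windows are shown for 3 genes: Sprr1a, which had the steepest change of the set, and Krt20 and Krt23, which are neighbours on chromosome 11 and moved in opposite directions. The windows run from 250 bases before to 50 bases after the annotated start and come from RefSeq, build GRCm38.p6. Capitals mark matches, on either strand, to the AP-1 motif TGANTCA in Sprr1a and to the CDX motif TTTATG in Krt23; none of the motifs was found in the Krt20 window.
Sprr1a (chr3:92485832-92486131, minus strand): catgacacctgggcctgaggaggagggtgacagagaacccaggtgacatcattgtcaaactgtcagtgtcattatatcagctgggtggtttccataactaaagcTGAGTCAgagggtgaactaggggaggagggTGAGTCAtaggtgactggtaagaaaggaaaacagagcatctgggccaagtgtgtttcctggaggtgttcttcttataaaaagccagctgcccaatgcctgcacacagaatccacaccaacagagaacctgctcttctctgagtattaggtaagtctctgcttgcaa
Krt20 (chr11:99438104-99438403, minus strand): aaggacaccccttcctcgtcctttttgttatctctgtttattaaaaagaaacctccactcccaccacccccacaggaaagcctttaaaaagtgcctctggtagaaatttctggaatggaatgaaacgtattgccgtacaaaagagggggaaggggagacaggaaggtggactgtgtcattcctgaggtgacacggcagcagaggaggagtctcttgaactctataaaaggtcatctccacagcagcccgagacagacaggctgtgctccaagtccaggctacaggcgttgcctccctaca
Krt23 (chr11:99493071-99493370, minus strand): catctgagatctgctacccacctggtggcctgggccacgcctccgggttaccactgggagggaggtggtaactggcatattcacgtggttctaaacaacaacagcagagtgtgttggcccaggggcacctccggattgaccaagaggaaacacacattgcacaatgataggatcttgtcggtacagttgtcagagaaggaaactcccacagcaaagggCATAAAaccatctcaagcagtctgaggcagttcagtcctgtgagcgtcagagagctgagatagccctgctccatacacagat

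The Sprr1a window held 2 copies of the AP-1 motif, the binding sequence of Fos and Jun dimers, beginning at positions -146 and -116 relative to the start. Over 32851 windows of 300 bases in the same table, 7.81% held at least 1 copy and 0.46% held 2 or more. The Krt23 window held 1 match to the CDX motif, the letters CATAAA at position -32, and 11.9% of all windows held at least 1. This motif is named for the intestinal homeobox factors Cdx1 and Cdx2, and whether they bind at this match was not tested. Of these factors Cdx2 rose by 0.79 ± 0.17 (limma adjusted p = 0.0185), opposite to Krt23, and Cdx1, at 0.39 ± 0.15, did not pass (0.104); both were named here after their values were seen. The STAT5 motif TTCNNNGAA was found in none of the 6 windows available for these genes (Krt7, Krt8, Krt18, Krt20, Krt23 and Sprr1a), and in 8.3% of all windows. A match describes letters in the window only, and a missing match says nothing about the factor.

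Sprr1a was the most changed of the set. Its ratios were 7.31, 6.39 and 6.55 in the arrays labelled STAT5b-/-, against 0.988, 0.821 and 1.19 in WT arrays and 0.808 in REF. The lowest of the arrays labelled STAT5b-/- lay far above the highest wild type sample, and REF lay just under the WT range. The mean ratio was 6.75 ± 0.493 in the arrays labelled STAT5b-/- and 1 ± 0.186 in WT arrays (SD, n = 3 each), with a log2 fold change of 2.77 ± 0.17 (SE) and a limma adjusted p of 0.000208. Leaving out any 1 of the 6 arrays kept the call, with log2 fold changes of 2.64 to 2.90 and adjusted p of at most 0.00319. Quantile normalization lowered the log2 fold change to 1.73 (adjusted p = 0.031). That setting gives the 6 arrays the same distribution, so by design it narrows the arrays labelled STAT5b-/- and widens the WT arrays.

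Krt20, the keratin of differentiated surface colonocytes, was the member of the filament family that rose. Its ratios were 1.41, 1.72 and 1.78 in the arrays labelled STAT5b-/-, against 0.909, 1.03 and 1.07 in WT arrays and 1.06 in REF. The groups did not overlap, and REF fell within the WT range. The log2 fold change was 0.71 ± 0.14 (limma adjusted p = 0.0151). The call ended without STAT5b-/- replicate 2 (adjusted p = 0.0675), without STAT5b-/- replicate 3 (0.0672) and with quantile normalization (0.205), with the direction kept each time.

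Krt18, the general type I partner of Krt8, was lower. Its ratios were 0.793, 0.699 and 0.627 in the arrays labelled STAT5b-/-, against 1.06, 1.03 and 0.911 in WT arrays and 1.08 in REF. The groups did not overlap, and REF was the highest of the 7 samples. The log2 fold change was -0.51 ± 0.14 and lay near the threshold (limma adjusted p = 0.0446). Leaving out any 1 of the 6 arrays ended the call, with adjusted p of 0.0557 to 0.153, and so did quantile normalization (0.354) and median centring (0.0512), whereas the log2 fold change kept its sign, between -0.59 and -0.41. Adding REF to the WT arrays as a further wild type sample gave an adjusted p of 0.0177.

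Krt23 was the lowest of the set. Its ratios were 0.439, 0.701 and 0.385 in the arrays labelled STAT5b-/-, against 0.988, 1.09 and 0.924 in WT arrays and 1.04 in REF. STAT5b-/- replicate 2 was nearer to WT than the other 2 arrays of its group, and the groups still did not overlap. The log2 fold change was -1.02 ± 0.23 (limma adjusted p = 0.0227). The call ended without STAT5b-/- replicate 1 (adjusted p = 0.0881), STAT5b-/- replicate 3 (0.0749), WT replicate 1 (0.0557) or WT replicate 3 (0.054), and with quantile normalization (0.141).

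Krt19, the smallest type I keratin and a second partner of Krt8, did not pass. Its ratios were 1.28, 1.24 and 1.32 in the arrays labelled STAT5b-/-, against 1.10, 0.905 and 0.995 in WT arrays, and 1.31 in REF. The arrays labelled STAT5b-/- all exceeded the WT arrays, but REF, a wild type sample, lay among them. The log2 fold change of 0.36 ± 0.13 had a 95% interval of 0.061 to 0.66 and an adjusted p of 0.0878, and REF minus WT was 0.39.

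Krt7 had ratios of 1.10, 1.02 and 1.30 in the arrays labelled STAT5b-/-, against 1.03, 1.08 and 0.888 in WT arrays and 0.958 in REF. The groups overlapped. The log2 fold change of 0.19 ± 0.15 did not pass (limma adjusted p = 0.432), with a 95% interval of -0.16 to 0.54 that leaves room for a rise as well as a small fall. It was 0.090 without STAT5b-/- replicate 3 and 0.10 without WT replicate 3.

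Groups that did not overlap were seen in 5 of the 6 genes, all except Krt7, and in 41.5% of all genes. REF was also set against the 3 WT arrays as 1 sample. None of the 6 genes was called, with log2 differences from -0.29 for Sprr1a to 0.39 for Krt19, and limma called 0 of the 14351 genes (0%), where 208 had an unadjusted p under 0.05. This test rests on a single REF sample. The comparisons of REF and of the arrays labelled STAT5b-/- share the WT arrays.

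The other genes were set against Krt18 within each array, in place of Krt8, which was not measured. Krt18 was chosen for this after the values were seen. In the arrays labelled STAT5b-/- the log2 ratio of Krt20 to Krt18 was 0.83, 1.30 and 1.51, against -0.22, -0.011 and 0.23 in WT arrays and -0.033 in REF. Their ratio thus shifted toward Krt20 by 1.21 on the log2 scale, with no overlap between groups. For Krt19 the shift was 0.87, for Krt7 0.69 and for Sprr1a 3.28, each without overlap. The fall of Krt18 itself, -0.51, is a part of every shift in this comparison. By themselves Krt19 and Krt7 did not pass, and the Krt7 groups overlapped. How many of all genes would separate against Krt18 in this way was not determined. Krt23 relative to Krt18 shifted by -0.52, and STAT5b-/- replicate 2, at 0.0048, lay within the WT range; without it the shift was -0.78. An exact two-sided permutation test of 3 against 3 arrays cannot give a p below 0.1, and gave 0.1 for Krt7, Krt19, Krt20 and Sprr1a (adjusted 0.125 over 5 comparisons) and 0.2 for Krt23, so no difference could pass.

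Other transcripts of simple epithelium were examined beside the keratins. Counts of calls in this and later lists stand beside 13.3% called higher and 8.42% called lower over all genes. Of 19 measured genes of simple epithelium 7 rose and 1 fell, with a median log2 fold change of 0.39 against 0.0068 over all genes. Without STAT5b-/- replicate 2 or without STAT5b-/- replicate 3 there were 2 higher calls, and with quantile normalization 1, while the median stayed between 0.32 and 0.46 in these settings and with any other array left out. In bulk tissue a change in the number of cells of a type and in RNA per cell cannot be told apart. Elf3, an epithelial ETS factor, rose by 1.13 ± 0.12, and the matriptase inhibitors Spint1 and Spint2 rose by 0.99 ± 0.19 and 0.67 ± 0.13. Ehf, another epithelial ETS factor, fell by 0.92 ± 0.14. The call of Spint2 ended without STAT5b-/- replicate 2 or 3 (adjusted p up to 0.0576). With quantile normalization 4 of the 34 genes chosen by rule from the surrounding lists kept their call, Elf3, Il1rn, Anxa3 and Anxa8. The defining markers Epcam and Cdh1 had log2 fold changes of 0.39 ± 0.13 and 0.12 ± 0.13 that did not pass (adjusted p = 0.0798 and 0.543).

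Each gene was also expressed relative to the median of these 19 genes in the same array. Krt18 stood at -0.63, -1.08 and -1.08 on the log2 scale in the arrays labelled STAT5b-/-, against 0.049, 0.019 and -0.097 in WT arrays and 0.026 in REF. Krt18 was thus low against other epithelial transcripts, by 0.92, more than in the plain ratio. Krt23 differed by -1.44, Krt20 by 0.29 and Sprr1a by 2.36, each without overlap between groups. Over 13 alternatives the difference of Krt20 ranged from 0.20 to 0.36, with an exact permutation p of up to 0.3. The differences of -0.053 for Krt19 and -0.23 for Krt7 came with overlapping groups. That of Krt7 was -0.083 without STAT5b-/- replicate 2, and that of Krt19 changed sign without STAT5b-/- replicate 2 (0.04) or WT replicate 1 (0.0066). The exact two-sided permutation p was 0.1, the smallest possible, for Krt18, Krt20, Krt23 and Sprr1a (adjusted p = 0.15 over 6 genes), 0.2 for Krt7 and 0.6 for Krt19.

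**Figure D2:**
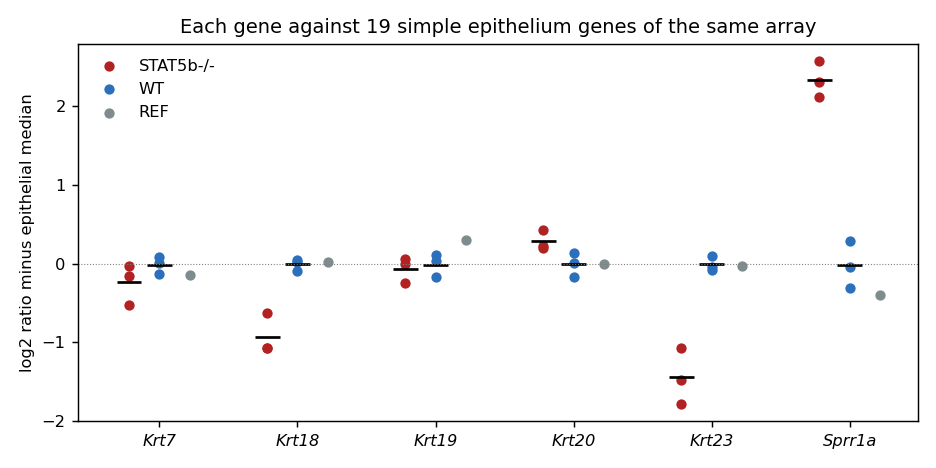
Log2 ratio of each gene minus the median log2 ratio of 19 simple epithelium genes in the same array (vertical axis), for arrays labelled STAT5b-/- (red), WT (blue) and REF (grey); black lines are means over 3 arrays. Krt18 and Krt23 lie below zero in all arrays labelled STAT5b-/-, Krt20 and Sprr1a above it, and Krt7 and Krt19 overlap the WT arrays.

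Among genes of surface colonocytes, the cells in which Krt20 is known to be made, 8 of 12 rose and 1 fell, with a median log2 fold change of 0.98. With quantile normalization 0 were called and the median was 0.67. Tmigd1, a membrane protein of mature enterocytes, rose by 2.79 ± 0.27, the phosphate transporter Slc20a1 by 1.72 ± 0.22 and the water channel Aqp8 by 1.45 ± 0.15, while Ceacam20, a brush border protein, fell by 0.64 ± 0.13. Of 10 genes of the crypt base and of cycling cells 1 rose and 2 fell, where 13.3% and 8.42% of all genes did. None of the 10 was called with quantile normalization or without STAT5b-/- replicate 2. Axin2, a Wnt feedback gene, fell by 0.74 ± 0.14 and Smoc2, a stem cell marker, by 0.87 ± 0.17, and the stem cell factor Ascl2 rose by 0.48 ± 0.13. The call of Ascl2 ended whichever array was left out (adjusted p up to 0.125), those of Axin2 and Smoc2 without STAT5b-/- replicate 2 (0.0507 and 0.0578), and that of Ceacam20 without STAT5b-/- replicate 2 or 3 (up to 0.0692). The part that cell composition plays in the Krt20 value was not tested.

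Desmosomes and cytolinkers, the plaques and adaptors to which keratin filaments attach, had 3 of 18 measured genes higher and 1 lower (median 0.26). Over all genes 13.3% were called higher and 8.42% lower, so these counts lie near the share of all genes. The desmosomal cadherins Dsg2 and Dsc2 rose by 1.05 ± 0.15 and 0.55 ± 0.13 and the plaque protein Pkp3 by 0.94 ± 0.17. Eppk1, an epithelial plakin that binds keratin filaments, fell by 0.43 ± 0.12. Dsg2 ratios were 2.10, 2.41 and 1.76 in the arrays labelled STAT5b-/-, against 0.932, 1.00 and 1.07 in WT arrays and 1.07 in REF, so every array labelled STAT5b-/- exceeded every wild type sample. The calls of Dsg2 and Pkp3 held when any 1 array was left out, that of Eppk1 ended whichever array was left out (adjusted p up to 0.134), and that of Dsc2 ended without any 1 of the STAT5b-/- arrays or WT replicate 1 (up to 0.0987). Among intermediate filaments of other families 1 of 13 rose and 1 fell: the neurofilament Nefl rose by 1.16 ± 0.18, and vimentin (Vim), the filament of mesenchymal cells, fell by 0.83 ± 0.15.

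The rest of the keratin family gave no calls. Of 30 other measured keratins, mostly those of skin, hair and stratified epithelium, 0 passed the limma test in either direction and 5 had an unadjusted p under 0.05. Their median log2 fold change was -0.14. The corneal keratin Krt12, named after its values were seen because it precedes Krt20 and Krt23 on chromosome 11, had ratios of 3.84, 1.34 and 3.67 in the arrays labelled STAT5b-/-, against 0.707, 1.48 and 0.808 in WT arrays and 0.791 in REF. STAT5b-/- replicate 2 lay below WT replicate 2, so the groups overlapped, and its log2 fold change of 1.49 ± 0.47 did not pass (adjusted p = 0.0648). Without WT replicate 2, 2 of the other keratins passed as higher, Krt12 (adjusted p = 0.0295) and the keratin-like gene Krt222 (0.0331). With REF added to the WT arrays Krt12 (0.0294) and Krt222 (0.024) were called higher and Krt17, a keratin of skin appendages, lower (0.0363), and without STAT5b-/- replicate 2 Krt12 alone of the 30 was called (0.022).

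WT replicate 2 stood apart in the other keratins. It was the highest WT array in 26 of the 30 other keratins (86.7%), in 2 of the 6 genes described here and in 48.9% of all genes. The median ratio of the 30 was 0.823 in WT replicate 1, 1.26 in WT replicate 2, 0.886 in WT replicate 3 and 0.758 in REF. The sign of their median fold change turned without this array, to 0.075. It was also the highest WT array in 6 of the 7 other Sprr genes, whose median turned from -0.093 to 0.14 without it, and the median of squamous genes turned from -0.11 to 0.10. Probe sets of near-identical keratins and Sprr2 genes may share signal, which the deposited values cannot separate.

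**Figure D3:**
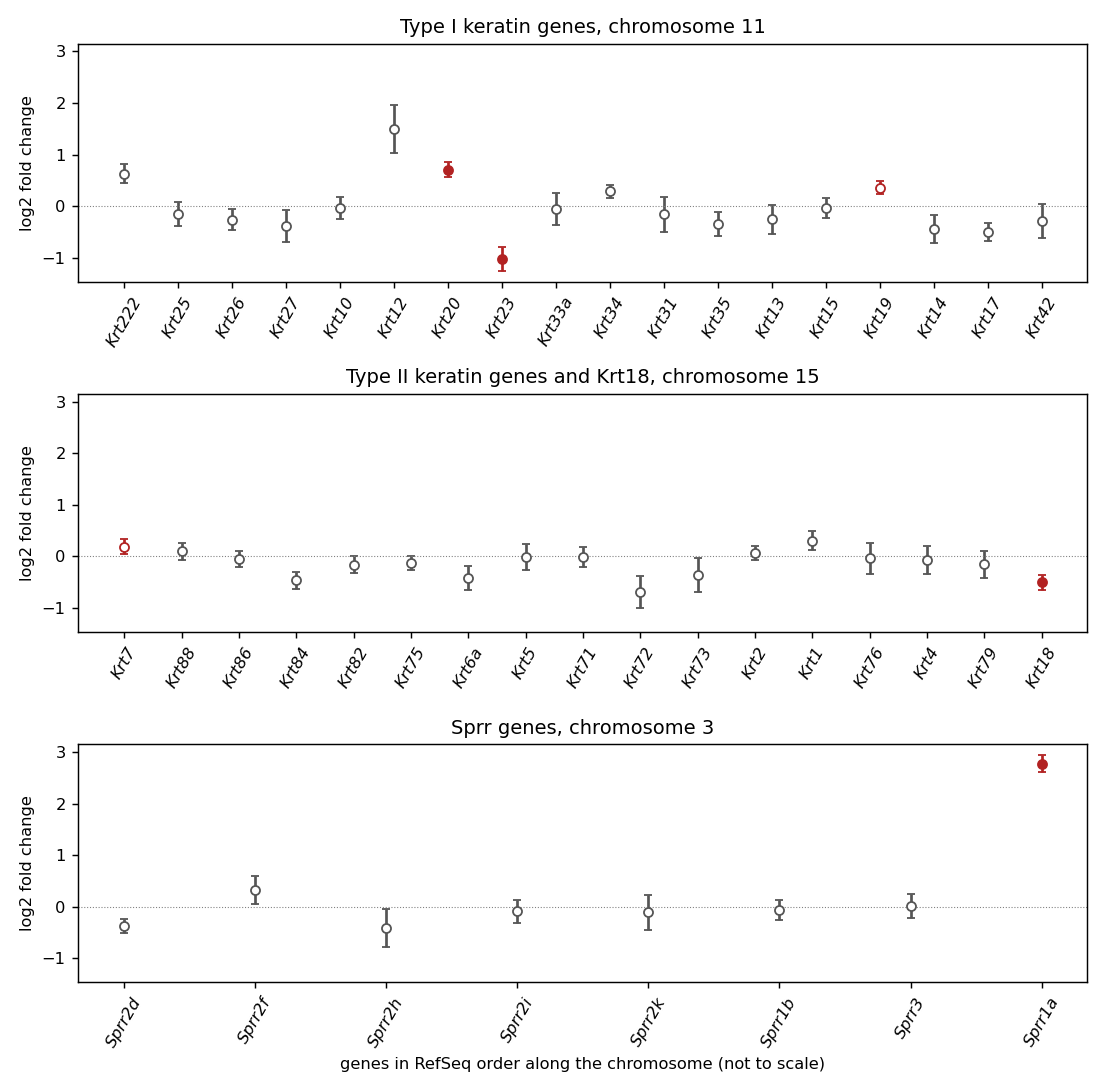
Log2 fold change of STAT5b-/- over WT with its SE (vertical axis) for measured keratins of chromosomes 11 and 15 and Sprr genes of chromosome 3, in gene order; red marks the genes described here and filled points an adjusted p under 0.05. Krt20 and Krt23 lie side by side on opposite sides of zero, and Sprr1a at 2.77 stands above its measured neighbours.

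Keratin genes lie in a type I cluster on chromosome 11 and a type II cluster on chromosome 15, at the end of which the type I gene Krt18 lies next to Krt8. Measured were 18 keratins on chromosome 11 and 17 on chromosome 15, Krt18 among the 17. Krt20 and Krt23 are consecutive protein-coding genes in the RefSeq order, both on the minus strand, and had log2 fold changes of 0.71 and -1.02. Sprr1a lies among the Sprr genes on chromosome 3, next to Sprr3. Of the 7 other measured Sprr genes 0 passed the limma test and 1 had an unadjusted p under 0.05, with log2 fold changes from -0.42 to 0.32.

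Other genes of the cornified envelope, the structure to which Sprr1a contributes in squamous cells, were mostly not called. Of 22 measured genes, the 7 other Sprr genes among them, 1 rose and 1 fell, with a median log2 fold change of -0.067. The sign of this median turned without WT replicate 2 (0.13), with quantile normalization (0.030) and with REF added to the WT arrays (0.026). The transglutaminase Tgm3, which cross-links envelope proteins, fell by 2.07 ± 0.54, with ratios of 0.109, 0.266 and 0.315 in the arrays labelled STAT5b-/-, against 0.616, 1.75 and 0.630 in WT arrays and 1.22 in REF. The protease inhibitor Cst6 rose by 0.86 ± 0.23. The call of Tgm3 ended without any 1 of the STAT5b-/- arrays or WT replicate 3 (adjusted p up to 0.0997), and that of Cst6 was kept in 1 of the 6 fits with an array left out (up to 0.112).

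Genes of epithelial injury and repair, among which Sprr1a is often counted in mouse intestine, gave more calls lower than higher: 2 of 26 rose, 9 fell and 15 did not pass, with a median log2 fold change of -0.37. The interleukin-1 receptor antagonist Il1rn fell by 3.31 ± 0.24. The annexins Anxa3 and Anxa8 had log2 fold changes of -3.03 ± 0.29 and -2.92 ± 0.28. Anxa3 ratios were 0.0806, 0.156 and 0.139 in the arrays labelled STAT5b-/-, against 0.990, 1.23 and 0.783 in WT arrays and 0.959 in REF. These falls were kept when any 1 array was left out and with quantile normalization. The EGF receptor ligands Areg and Hbegf rose by 2.62 ± 0.72 and 1.30 ± 0.34. Areg differed widely among the WT arrays, with ratios of 3.37, 4.71 and 4.56 in the arrays labelled STAT5b-/-, against 2.17, 0.244 and 0.584 in WT arrays and 1.02 in REF. The calls of Areg and Hbegf ended without any 1 of the STAT5b-/- arrays or WT replicate 3 (adjusted p up to 0.127 and 0.13).

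Factors of the AP-1 family, whose motif stands in the Sprr1a window, rose in 5 of 12, with a median log2 fold change of 0.66 that became 0.36 without WT replicate 2. Junb rose by 1.48 ± 0.18, Jun by 1.02 ± 0.14 and the stress factor Atf3 by 2.11 ± 0.38. Jun ratios were 2.02, 1.86 and 2.22 in the arrays labelled STAT5b-/-, against 0.895, 1.02 and 1.09 in WT arrays and 0.897 in REF. Junb was 1.57 in REF, above all WT arrays. The 5 rises were kept in number when any 1 array was left out, and none passed with quantile normalization. Among other epithelial regulators 4 of 19 rose and 1 fell, where 13.3% and 8.42% of all genes did. There were 2 rises when any 1 of the STAT5b-/- arrays or WT replicate 1 was left out. Klf6 rose by 1.06 ± 0.19, the nuclear receptor Hnf4a by 0.70 ± 0.12 and Klf3 by 0.59 ± 0.15, and Foxa3, a goblet cell factor, fell by 1.27 ± 0.14. The call of Klf3 ended without any 1 of the STAT5b-/- arrays or WT replicate 1 (up to 0.0981).

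Markers of other epithelia that could bring keratins into the sample were examined beside these results. Of 16 measured genes of squamous epithelium 1 rose, the gap junction gene Gjb2, by 0.58 ± 0.13, a call that ended without any 1 of the STAT5b-/- arrays or WT replicate 1 (adjusted p up to 0.0941). Among the 16 are 9 of the 30 other keratins. The summed ratio of the 16 genes was 13.6 to 16.0 in the arrays labelled STAT5b-/-, 14.1 to 19.8 in WT arrays and 14.5 in REF. The defining markers Krt5, Krt14 and Trp63 had log2 fold changes of -0.012, -0.44 and -0.22 (adjusted p = 0.98, 0.296 and 0.717). Mesothelium markers had 0 of 10 called and 1 with an unadjusted p under 0.05, Upk1b, at a log2 fold change of -0.76. The sum of the 10 was 9.52 to 11.6 in the arrays labelled STAT5b-/-, 9.78 to 10.2 in WT arrays and 9.34 in REF. Genes listed for urothelium had 1 of 6 called, the transcription factor Foxa1, which fell by 0.67 ± 0.12 and is not one of its defining markers. The sum of the 6 was 5.08 to 6.03 in the arrays labelled STAT5b-/-, 5.56 to 6.83 in WT arrays and 5.38 in REF. Smooth muscle genes had 0 of 8 called and 0 with an unadjusted p under 0.05, with sums of 7.50 to 10.4 in the arrays labelled STAT5b-/-, 6.85 to 9.66 in WT arrays and 7.33 in REF. The defining markers of these tissues did not pass either: log2 fold changes were 0.028 for Msln and 0.44 for Upk3b of mesothelium, 0.0075 for Upk2 and 0.041 for Upk1a of urothelium, and 0.0071 for Myh11 and -0.29 for Actg2 of smooth muscle. Ratios to WT cannot show whether any of these markers is near background.

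**Figure D4:**
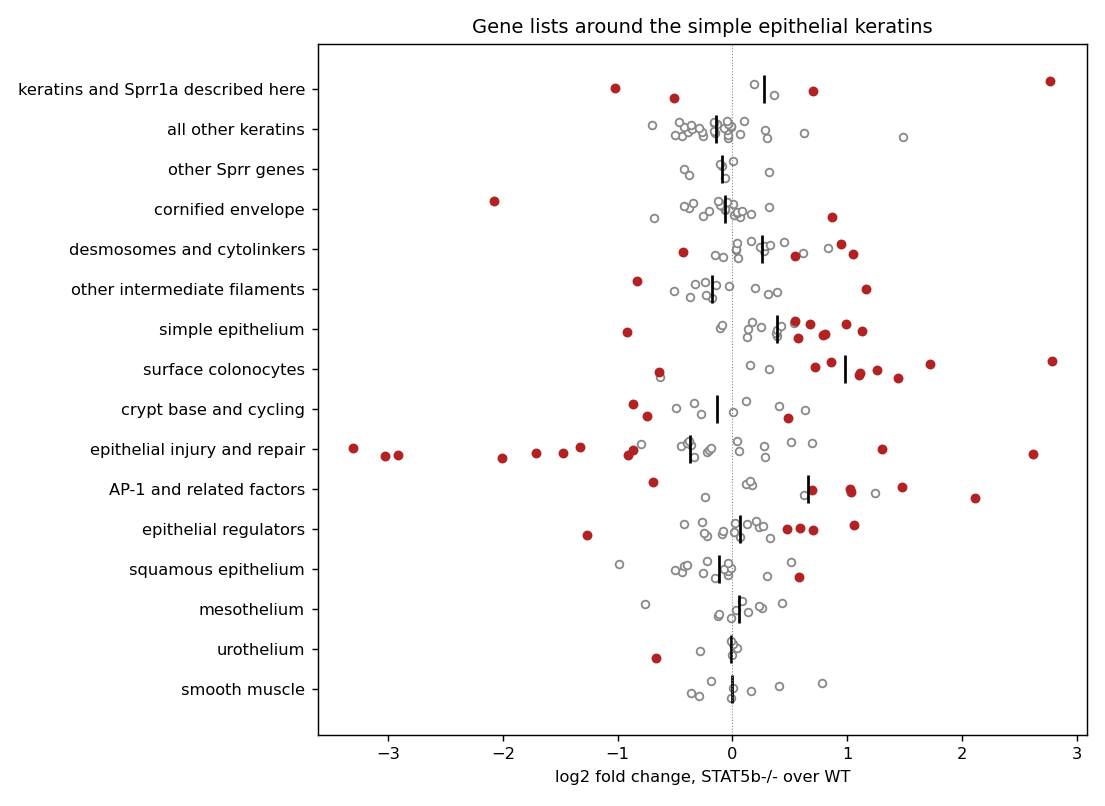
Log2 fold change of STAT5b-/- over WT (horizontal axis) of every measured gene in the keratin set and in 15 surrounding lists; red points passed an adjusted p under 0.05, open points did not, and black bars are medians. The median is highest in surface colonocyte genes, at 0.98, and lowest in genes of injury and repair, at -0.37.

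The genes most like each member were sought by the root mean square difference of log2 ratios over the 7 samples, among 14086 named genes. Sprr1a was nearest to Stard5 and Adra2a, at 0.20 and 0.23. Krt20 was nearest to Foxj3 and Sh3yl1, at 0.063 and 0.067, and Krt23 to Klf7 and Pcsk1, at 0.16 and 0.18. Krt18 was nearest to Smad5 and Qtrt1, at 0.087 for each, Krt19 to Nectin3 and Rab1b, at 0.046 and 0.049, and Krt7 to Snx14 and Nt5m, at 0.058 for each. Members with small changes have many near neighbours, so these distances describe the 7 samples only. Between members the nearest were Krt7 and Krt19, at 0.25, and the farthest Krt23 and Sprr1a, at 2.50.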

How the data were processed

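Colon RNA, 100 ng per sample, was amplified, labelled with biotin and measured on arrays after an Affymetrix protocol, per the labels' protocols. RMA is named in the submitters' processing notes, with no version; the array type and probe grouping are not given in the sources used here. The deposited values are linear ratios to the mean of the WT arrays: that mean was 1 in each of 26180 probe sets, to within 1.87e-07. The lowest ratio, 0.01, was not reached by the genes described. The largest relative gap between the REF columns was 2.47e-07, and they were averaged. The number of arrays limits precision. Levels and detection could not be judged.

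Accessions without version were matched to RefSeq genes of GRCm38.p6: 15228 probe sets had 1 symbol, 0 several and 10952 none, giving 14351 genes. Log2 ratios, with no pseudocount, were averaged over a gene's probe sets and compared with limma 3.58.1 in R 4.3.3 (lmFit and eBayes), as 3 STAT5b-/- against 3 WT arrays, adjusted by Benjamini-Hochberg over the 14351 genes, with calls at an adjusted p under 0.05. REF was compared as 1 sample against 3. Group differences of single values used an exact two-sided permutation test. The planned comparison with Krt8 could not be made, and Krt18 took its place. Scripts were tested on simulated data. Motif shares count windows of all RefSeq promoters in the table used.

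The genes described, the lists and the tests were chosen with earlier results of these data known. Genes named from a list are the up to 3 with the smallest p in each direction among those called, of which 1 is not reported here; likeness used the 2 nearest genes, without predicted, Xist or Y-linked genes. Alternatives covered scaling, probe set choice, a pseudocount of 0.1, genes at the lowest value, robust moderation, a replicate block, sex, REF as wild type and each array left out.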

Additional observations from a re-analysis of the deposited data

How the results depend on the processing

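Of 14351 genes 3119 were called, 1910 higher and 1209 lower. Quantile normalization left 392 calls, 165 of them higher (42.1%, where it had been 61.2%) and 227 lower. The cause was not tested. It gives the arrays the same distribution, though WT arrays, whose mean is the divisor, spread less than arrays labelled STAT5b-/-. A call lost under this setting therefore cannot by itself tell a weak difference from the effect of the scaling. The fit with the replicate number as a block (replicate block) called 2039, with 1238 higher and 801 lower, and that with sex as a covariate, or without the only male, 1914, with 1180 and 734. Leaving out each array in turn gave 1716 to 3551 calls, 1053 to 2192 higher and 663 to 1359 lower. Deviations of same-numbered arrays correlated at 0.036, -0.098 and -0.19, and those of differently numbered arrays at -0.14 to 0.22. No pairing by replicate number was seen, but deviations within groups of 3 arrays cannot exclude it. Under the block Krt18 alone of the 4 called members lost its call (limma adjusted p = 0.0809). With sex as a covariate Krt18 (0.0557) and Krt23 (0.0881) lost theirs, and median centring ended that of Krt18 (0.0512). All 16 alternatives kept the direction of each of the 6 members between STAT5b-/- and WT, and all kept the call of Sprr1a. Several of them could not have changed a direction. Probe set choice, removal of genes at the lowest value, robust moderation and the replicate block leave a member's log2 fold change as it was. The sex covariate gave the same member values as leaving out the only male. For REF over WT, where 0 genes were called in every setting, the near-zero difference of Krt7 (-0.056) changed sign with quantile normalization (0.015) and without WT replicate 2 (0.0048), with a range of -0.14 to 0.0048 over the WT arrays left out. That of Krt23 (0.055) changed sign without WT replicate 3 (-0.00022), in a range of -0.00022 to 0.12. Relative to epithelial genes, Krt19 ranged from -0.13 to 0.040 with an array left out, with a positive sign without STAT5b-/- replicate 2 (0.040) or WT replicate 1 (0.0066). Of 34 genes chosen by rule from the lists 20 kept their call whichever array was left out and 4 (Elf3, Il1rn, Anxa3 and Anxa8) with quantile normalization. List counts without arrays, and Krt18 in place of Krt8, were chosen after seeing the data; the comparison with Krt8 itself was not run.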
